A study of Mus musculus with 4 samples.

Results

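The promoters of the ribosomal protein (RP) genes were examined in the ATAC-seq peak lists of WT and Tet2 KO primary myoblasts. The members were the protein-coding genes of the GENCODE M1 annotation of mm9 with an Rpl or Rps symbol followed by a number and at most 2 further characters, together with Rplp0, Rplp1, Rplp2 and Rpsa. The S6 kinase and Rps19bp genes were left out. This gave 84 of 22380 protein-coding genes, with 33 for the small and 51 for the large ribosomal subunit, and 350 annotated transcription start sites in all. Among them were 7 paralogs with an l in the symbol, such as Rpl3l and Rpl22l1, and 77 other members. A peak was taken as a promoter peak when its centre lay between 1000 bp upstream and 100 bp downstream of any of these starts.

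ATAC-seq marks open chromatin by letting the transposase Tn5 insert sequencing adapters where DNA is accessible, and a peak is a stretch in which the fragments pile up above the local background. The cells came from C57BL/6 mice, WT or constitutive Tet2 KO with the 3rd exon of Tet2 deleted, for which the study names young adult males unless it states otherwise. Satellite cells were sorted from hindlimb skeletal muscle as CD45-, CD11b-, CD31- and Sca1- cells with CD34 and Integrin a7, and were grown for 3 days until they were MyoD+ myoblasts. Each library was made from 5000 cells. The labels give 2 WT and 2 Tet2 KO samples, and the values come from 1 peak list per genotype, which its name ties to the genotype and to no replicate. No value therefore has a replicate, WT and Tet2 KO could not be compared by a test, and the Wilson 95% intervals given with shares cover counting error only.

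RP genes encode the proteins that join the ribosomal RNAs in the small and the large subunit of the ribosome. They are read in every growing cell, usually from CpG-rich promoters, and their transcripts tend to begin with a cytosine inside a tract of pyrimidines, the terminal oligopyrimidine motif, through which mTOR signalling sets their translation. Many RP genes hold small nucleolar RNAs (snoRNAs) in their introns, and many have processed pseudogenes elsewhere in the genome. Tet2 is a dioxygenase that oxidises 5-methylcytosine in DNA, the first step of removing this mark.

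The WT list held 25775 peaks and the Tet2 KO list 3836. MACS2 numbers its peaks along the genome, and 9707 WT and 4403 Tet2 KO numbers were absent, so neither list is the whole set of calls. Background coverage over the genome came to 0.649 fragments in WT and 1.38 in Tet2 KO. The deposited scores follow the q-value in the WT list and the p-value in the Tet2 KO list, and 55 Tet2 KO peaks but 0 WT peaks had a -log10 q under 2. Of 7 myoblast genes, Myod1, Des and Chrna1 had a promoter peak in both lists, while Myf5, Pax7, Cdh15 and Itga7 had none in either. Of 7 genes of the blood, endothelial and other cells removed by the sort, Pecam1 had 1 in WT. Over all protein-coding genes, 30.2% had a promoter peak in WT and 7.92% in Tet2 KO. Tet2 itself had a promoter peak in WT and none in Tet2 KO, which does not test the deletion.

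The 250 bases upstream of the RefSeq start are shown for 7 members that span the range of the results. Rpl22 and Rplp0 had the strongest WT peaks and also a Tet2 KO peak. Rpl37 and Rps21 had peaks in both lists and the ETS-type letters. Rpl27 had the strongest WT peak without a listed Tet2 KO peak, and Rpl23 and Rpl3l had no peak in either list. The sequences are those of RefSeq (GRCm38.p6), placed in mm9 by exact match and written on the strand of the gene. Capitals mark CCGGAAG, the ETS-type motif, and GGGCGG, the GC box, on either strand.
Rpl22, chr4:151699585-151699834, plus strand: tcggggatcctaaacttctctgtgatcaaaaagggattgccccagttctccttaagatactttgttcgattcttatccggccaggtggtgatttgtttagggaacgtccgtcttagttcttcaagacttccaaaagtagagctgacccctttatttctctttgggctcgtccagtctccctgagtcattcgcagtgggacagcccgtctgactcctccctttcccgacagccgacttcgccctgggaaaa
Rplp0, chr5:116009226-116009475, plus strand: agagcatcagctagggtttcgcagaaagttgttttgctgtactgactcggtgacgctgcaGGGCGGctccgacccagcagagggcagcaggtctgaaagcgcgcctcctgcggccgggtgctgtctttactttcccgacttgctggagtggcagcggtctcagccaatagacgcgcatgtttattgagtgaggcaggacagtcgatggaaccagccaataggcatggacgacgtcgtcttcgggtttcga
Rpl37, chr15:5066363-5066612, plus strand: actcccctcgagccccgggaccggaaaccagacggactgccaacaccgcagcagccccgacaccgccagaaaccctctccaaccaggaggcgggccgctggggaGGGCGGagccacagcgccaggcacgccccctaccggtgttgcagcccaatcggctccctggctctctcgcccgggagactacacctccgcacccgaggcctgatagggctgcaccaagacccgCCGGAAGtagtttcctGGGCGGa
Rps21, chr2:179991834-179992083, plus strand: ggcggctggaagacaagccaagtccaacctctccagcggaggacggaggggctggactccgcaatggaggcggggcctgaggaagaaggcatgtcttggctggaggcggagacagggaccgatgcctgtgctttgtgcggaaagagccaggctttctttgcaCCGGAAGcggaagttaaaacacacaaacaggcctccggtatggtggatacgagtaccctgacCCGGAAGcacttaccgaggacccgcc
Rpl27, chr11:101303309-101303558, plus strand: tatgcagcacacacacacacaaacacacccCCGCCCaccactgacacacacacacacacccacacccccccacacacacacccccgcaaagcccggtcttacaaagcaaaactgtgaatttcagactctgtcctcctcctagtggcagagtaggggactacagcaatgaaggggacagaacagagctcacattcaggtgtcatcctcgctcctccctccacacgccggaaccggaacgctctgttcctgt
Rpl23, chr11:97643754-97644003, minus strand: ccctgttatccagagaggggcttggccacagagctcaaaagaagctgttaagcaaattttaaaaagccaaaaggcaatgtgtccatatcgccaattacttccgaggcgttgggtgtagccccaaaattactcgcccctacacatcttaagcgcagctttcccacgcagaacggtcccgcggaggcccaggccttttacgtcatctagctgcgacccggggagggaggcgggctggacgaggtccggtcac
Rpl3l, chr17:24864521-24864770, plus strand: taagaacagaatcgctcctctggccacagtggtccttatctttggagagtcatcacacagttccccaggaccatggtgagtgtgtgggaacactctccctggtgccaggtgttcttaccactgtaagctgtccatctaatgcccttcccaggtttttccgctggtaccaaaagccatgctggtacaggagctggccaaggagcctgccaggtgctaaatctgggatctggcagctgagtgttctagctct

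These stretches differ in composition. The GC content of the printed bases was 50% for Rpl22, 58.0% for Rplp0, 69.6% for Rpl37, 60.8% for Rps21, 56.4% for Rpl27, 55.6% for Rpl23 and 53.2% for Rpl3l. Rpl37 held 21 CpG dinucleotides and Rpl3l 2, and the Rpl27 stretch, with 8, carried a tract of CA repeats. The promoters with and without peaks could not be sorted by the capitalised letters alone: Rpl22 held neither motif and had the highest WT fold enrichment of the RP genes.

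RP promoters were more often listed as open in WT myoblasts than the promoters of protein-coding genes at large. A WT promoter peak was listed for 48 of the 84 RP genes, 57.1% (interval 46.5 to 67.2), against 30.2% of all protein-coding genes. The Tet2 KO list held a promoter peak for 11 RP genes, 13.1% (7.47 to 21.9), against 7.92% of all protein-coding genes. This Tet2 KO interval included the share of all protein-coding genes. A Tet2 KO peak reaching a -log10 q of 10 was listed for 1 of 84 RP genes and 278 of 22380 protein-coding genes. A total of 53 WT and 12 Tet2 KO peaks lay at RP promoters, a ratio of 4.42, against 4.17 at all protein-coding promoters. All 11 genes with a Tet2 KO peak also had a WT peak, 37 genes had a WT peak alone, 0 had a Tet2 KO peak alone and 36 had neither. Nearly the same held over all protein-coding genes, where 1749 of the 1772 with a Tet2 KO peak also had a WT peak. There 5014 genes had a WT peak alone and 23 a Tet2 KO peak alone.

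The shares were closer to those of CpG-rich promoters in general. Of 6985 protein-coding genes whose RefSeq promoter had a GC content of at least 50% and an observed to expected CpG ratio of at least 0.6, 52.6% had a WT peak and 15.1% a Tet2 KO peak. Of the 52 RP genes in this class, 33 had a WT peak (63.5%, 49.9 to 75.2) and 6 a Tet2 KO peak (11.5%, 5.40 to 23.0), and both intervals included the share of the whole class. Among the other promoters, 6 of 11 RP genes had a WT peak (54.5%, 28.0 to 78.7), against 16.0% of 7535 genes. The class was set by the RefSeq promoter. The counted peaks of Rpl24, among the 6, and of Rpl18, in the CpG-rich class, lay 7460 and 2741 bp from that start. Rpl15, also among the 6, was just under the CpG limit, at a ratio of 0.596. Small subunit genes had a WT peak in 21 of 33 cases (63.6%, 46.6 to 77.8) and large subunit genes in 27 of 51 (52.9%, 39.5 to 65.9), so the intervals of the subunits overlapped.

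The strength of the RP peaks was close to that of promoter peaks in general. Fold enrichment, the ratio of fragments at the summit to the local background with 1 added to both, had a median of 7.83 over the 53 WT peaks (quartiles 6.48 and 9.79), against 8.11 over 6724 WT peaks at all protein-coding promoters. In the Tet2 KO list the medians were 5.88 over the 12 RP peaks and 5.68 over 1613 promoter peaks. The median RP summit held 16 fragments in either list. The RP peaks were 203 bp wide at the median in WT and 161 bp in Tet2 KO, against 223 and 207 bp over all protein-coding promoters.

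**Figure D1:**
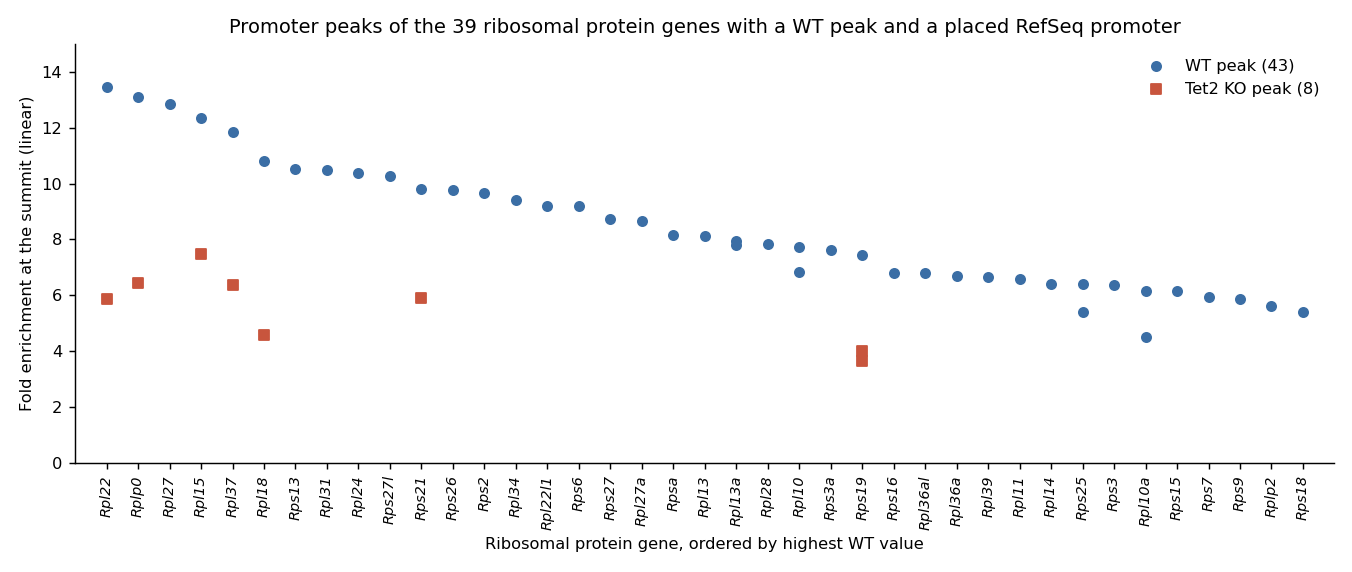
Fold enrichment at the summit (linear, 1 list per genotype, no error bars) of each promoter peak of the 39 RP genes with a WT peak and a placed RefSeq promoter, ordered by the highest WT value; circles are the 43 WT peaks and squares the 8 Tet2 KO peaks of these genes. WT values run from 13.4 at Rpl22 down to 4.50 at the weaker peak of Rpl10a, and each square stands under the WT peak of its gene.

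Among the RP genes with the highest WT fold enrichment were Rpl22 (13.4), Rplp0 (13.1), Rpl27 (12.8), Rpl15 (12.4), Rps29 (12.1), Rpl37 (11.9), Rpl18 (10.8), Rps13 (10.5) and Rpl31 (10.5). Rplp0 encodes the protein on which the acidic stalk of the large subunit is built, and the genes of its stalk partners stood lower, at 8.59 for Rplp1 and 5.63 for Rplp2. The 5 genes with the lowest highest WT value were Rps18 (5.39), Rpl32 (5.53), Rplp2 (5.63), Rps9 (5.85) and Rps7 (5.95). The Rpl22 summit held 31 fragments (Poisson 95% interval 21.1 to 44.0) and the Rps7 summit 10 (4.80 to 18.4). The Rps18 summit, the lowest by fold enrichment, held 15 (8.40 to 24.7). In fragments the Rpl22 interval thus overlapped that of Rps18 and lay above that of Rps7. Rps6, the small subunit protein phosphorylated by the S6 kinases, had a fold enrichment of 9.20, and Rpsa, also known as a laminin receptor precursor, had 8.16.

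Among the 11 RP genes with a listed peak in Tet2 KO myoblasts were Rpl15, Rpl18, Rpl22, Rpl37, Rplp0, Rps19, Rps21 and Rps29. Their values in both lists were as follows, each as fold enrichment and fragments at the summit. Rpl22 had 13.4 and 31 fragments in WT, and 5.87 and 16 in Tet2 KO. Rplp0 had 13.1 and 26 in WT, and 6.43 and 16 in Tet2 KO. Rpl15 had 12.4 and 30 in WT, and 7.49 and 18 in Tet2 KO. These are large subunit genes, and the Tet2 KO value was the lower of the pair in each.

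Rps29 had 12.1 and 26 fragments in WT, and 5.82 and 16 in Tet2 KO. Rpl37 had 11.9 and 29 in WT, and 6.38 and 16 in Tet2 KO. Rpl18 had 10.8 and 27 in WT, and 4.56 and 14 in Tet2 KO.

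Rps21 had 9.79 and 27 fragments in WT, and 5.91 and 18 in Tet2 KO. Rps19, the gene most often mutated in Diamond-Blackfan anaemia, had a single WT peak of 696 bp with 7.44 and 22 fragments, and in Tet2 KO a pair of narrow peaks of 109 and 209 bp with 3.65 and 3.98 and 10 and 11 fragments. The weaker of the pair was the only RP peak with a -log10 q under 2, at 1.68.

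Fold enrichment was higher in WT in all 12 of these pairs, and so it was in 99.2% of the 1594 pairs at all protein-coding promoters. Divided by the genome-wide background of its library, the WT summit stood a median of 3.71 times above the Tet2 KO summit in the RP pairs, with quartiles of 3.40 and 4.12, and it was 4.69 times above at the weaker Rps19 peak. The median over all promoter pairs was 3.73, with quartiles of 3.20 and 4.41. Within the pairs, the difference between the lists at RP promoters was thus of the size found at promoters in general. A pair needs a listed peak in both lists, so WT peaks without a counterpart are not covered. The single WT peak of Rps19 enters both of its pairs. The Tet2 KO library had the higher background by a ratio of 2.13, and the division carries this into the ratios between summits. Undivided, the summits of the RP pairs held a median of 27 fragments in WT and 16 in Tet2 KO. Over all promoter pairs these medians were 27 and 15. The source of the higher background, and its part in the fold enrichments, was not tested.

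Which RP peaks had a counterpart in the Tet2 KO list followed their strength in WT. Of the 53 WT peaks, 11 overlapped a Tet2 KO peak by at least 1 bp, 20.8% (12.0 to 33.5), against 22.9% of the WT peaks at all protein-coding promoters. Weighted to the fold enrichments of the RP peaks, the share over all promoters was 20.9%, or 11.1 of 53 peaks. The 11 had a median WT fold enrichment of 11.0, with a range from 7.44 to 13.4, and the other 42 had a median of 7.56, with a range from 4.50 to 12.8. Among the stronger 26 RP peaks 9 had a counterpart, and among the weaker 27 only 2, with Rps19 as 1 of them. Over all promoters the medians were 11.1 with and 7.51 without a counterpart.

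**Figure D2:**
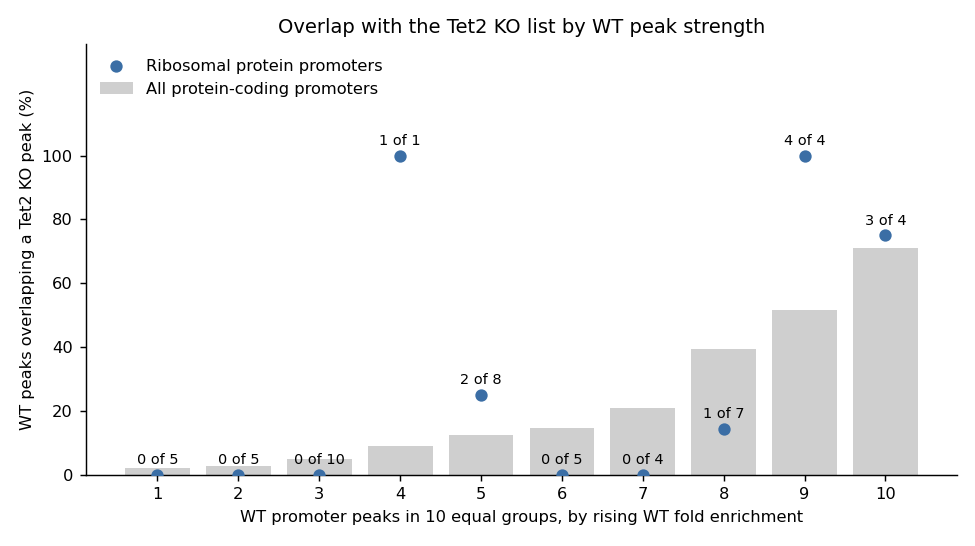
Share of WT promoter peaks that overlap a Tet2 KO peak (%), in 10 groups of near-equal size by rising WT fold enrichment; bars are all protein-coding promoters and points the RP promoters, with their counts. The bars rise from 2.14% to 71.0%, and 7 of the 8 RP peaks in the top pair of groups overlapped a Tet2 KO peak.

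In the group with the highest fold enrichment 3 of 4 RP peaks had a counterpart, against 71.0% of all promoter peaks, and in the next group 4 of 4, against 51.8%. The exception at the top was Rpl27, a large subunit gene, with 12.8 and 28 fragments over 366 bp in WT and no listed peak in Tet2 KO. Around Rpl27 4 Tet2 KO peak numbers were absent, so whether a peak had been called there cannot be told. A group lower, only 1 of 7 RP peaks had a counterpart, against 39.4%. That was Rps21, and the other 6 were Rps13, Rpl31, Rpl24, Rps27l, Rpl30 and Rps26, with fold enrichments between 9.78 and 10.5. When the WT list was reduced to its 3836 peaks with the highest -log10 q, as many as the Tet2 KO list held, 9 RP genes had a WT peak, against 11 in Tet2 KO, and over all protein-coding genes the numbers were 1458 and 1772.

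The accessible site sat just upstream of the start. The WT summits lay at a median of -59 bp from the nearest annotated start (quartiles -123 and -15), 45 of 53 upstream, and 35 of 53 within 100 bp (66.0%). Over all protein-coding promoters the median was -68 bp, 84.1% lay upstream and 62.1% lay within 100 bp. For the 39 RP genes with a WT peak and a placed RefSeq start, the nearest WT summit was also measured from that start. Its median was -90 bp (quartiles -131 and -40), and 22 of the 39 lay within 100 bp. In the 12 pairs the Tet2 KO summit was a median of 17.5 bp from the WT summit, against 39 bp over all promoter pairs. Rps29 had its summit within 1 bp in both lists, while the Tet2 KO summits of Rps19 lay 323 bp and 81 bp from the WT summit.

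**Figure D3:**
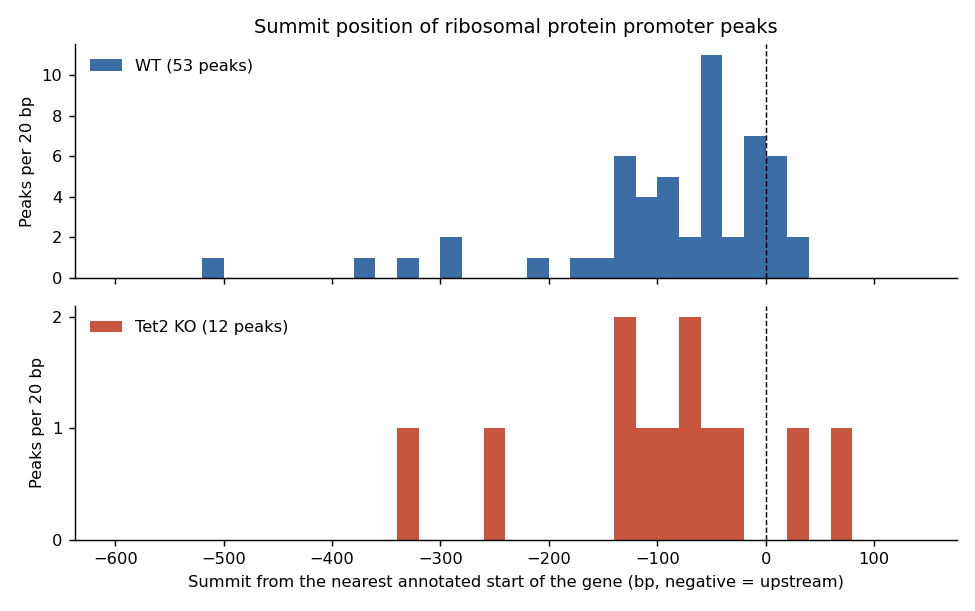
Number of RP promoter peaks per 20 bp by the distance of the summit from the nearest annotated start of the gene (bp, negative values upstream), for the 53 WT peaks and the 12 Tet2 KO peaks. In WT 35 summits fall within 100 bp of the start, which the dashed line marks, and in both lists most summits are upstream of it.

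Some RP peaks could belong to a neighbour or to a minor start. At 7 of the 53 WT peaks the window of a protein-coding gene on the opposite strand held the same peak: Nkiras1 at Rpl15, Sphk2 at Rpl18, Mgat2 at Rpl36al, Vps52 at Rps18, Rab13 at Rps27, and Trappc4 at both peaks of Rps25. Of these, Rpl15 and Rpl18 also had a Tet2 KO peak. The Rpl18 summit was 2741 bp upstream of the RefSeq start of Rpl18, and the Rpl24 summit lay 7460 bp downstream of the RefSeq start of Rpl24, so both were counted through other annotated starts. Of the 63 RP genes with a placed RefSeq start, 37 had a WT peak within the window of that start (58.7%) and 6 a Tet2 KO peak (9.52%). Accessibility at a shared peak cannot be told apart between the genes.

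There were 5 RP genes with a pair of WT peaks. Rpl10, whose protein joins the large subunit late in its assembly, had 7.73 at -123 bp and 6.84 at -515 bp. Rpl10a had 6.16 and 4.50, Rps20 had 7.51 and 5.12, and Rps25 had 6.40 and 5.39. Rpl13a had 7.95 and 7.81, the second at an upstream start that lies in the promoter window of Flt3l. None of these 10 peaks overlapped a Tet2 KO peak. Their fold enrichments were 4.50 to 7.95, and in the strength groups that cover these values 2.14% to 12.4% of all promoter peaks had a counterpart.

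The paralogs made for a small group with a mixed pattern. Rps27l, Rpl22l1 and Rpl36al had a WT peak, with fold enrichments of 10.3, 9.20 and 6.78 and 18, 15 and 11 fragments, and none had a Tet2 KO peak. Their counterparts Rps27, Rpl22 and Rpl36a had 8.72, 13.4 and 6.67. No peak was listed in either list for Rpl3l, the counterpart of Rpl3 in striated muscle, for Rpl10l and Rpl39l, which are known from male germ cells, or for Rpl7l1. Without the 7 paralogs, 45 of 77 RP genes had a WT peak and 11 a Tet2 KO peak.

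No WT peak was listed for 36 RP genes. Beside the 4 paralogs these included Rpl3, Rpl4, Rpl5, Rpl6, Rpl7, Rpl7a, Rpl8, Rpl9, Rpl12, Rpl17, Rpl19, Rpl21, Rpl23, Rpl26, Rpl29, Rpl35, Rpl35a, Rpl36, Rpl37a and Rpl38 of the large subunit, and Rps4x, Rps4y2, Rps10, Rps12, Rps14, Rps15a, Rps23, Rps24, Rps27a and Rps28 of the small subunit. Rpl5 and its partner Rpl11, which together with the ribosomal 5S RNA bind Mdm2, differed in this way, as Rpl11 had a WT peak of 6.57 with 13 fragments. A missing entry is not a closed promoter, since numbers were absent around 27 of the 36. They were also absent around 26 of the 48 RP genes with a WT peak. The stretch between the flanking listed peaks was 87037 bp at the median without a WT peak and 74052.5 bp with one. An absent number therefore need not lie at the promoter itself. For Rpl17, Rpl19, Rpl23, Rpl35a, Rpl36, Rpl3l, Rpl7l1, Rpl8 and Rps28 no WT number was absent between the listed peaks on either side, so no peak had been called there in that library. The nearest listed WT summit lay at -5353 bp from a start of Rpl19 and at 6647 bp from a start of Rps28.

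The same reading of the numbers limits what the lack of a Tet2 KO entry can mean. Of the 37 RP genes with a WT peak alone, Tet2 KO numbers were absent around 29. For Rpl22l1, Rpl23a, Rpl28, Rps2, Rps26, Rps27 and Rps3 none was absent, and a peak had thus been called in the WT library and not in the Tet2 KO library. Their WT fold enrichments ran from 6.37 at Rps3, which lines the entry of the mRNA channel, to 9.78 at Rps26. For Rpl23, Rpl35a, Rpl3l and Rpl7l1 no number was absent in either list. Tet2 KO numbers were also absent around 10 of the 11 RP genes with a Tet2 KO peak. Between the flanking listed Tet2 KO peaks lay a median of 432572 bp at these genes, and 474292 bp at RP genes without one. Such counts were not made over all protein-coding genes, so the split cannot be called particular to RP genes.

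Between 44.4% and 69.0% of the genes of other translation and housekeeping lists had a WT promoter peak, and the RP genes fell inside this range. The share was 69.0% of 58 ribosome biogenesis factors, 67.2% of 58 initiation factors (Eif), 64.3% of 42 proteasome subunits (Psm), 48.1% of 77 mitochondrial RP genes (Mrpl and Mrps) and 4 of 9 elongation factors (Eef). In Tet2 KO a promoter peak was listed for 10 initiation factors, 9 mitochondrial RP genes, 6 biogenesis factors, 3 proteasome subunits and 1 elongation factor. Of their WT peaks, 24.4% overlapped a Tet2 KO peak at the initiation factors (13.8 to 39.3), 19.0% at the mitochondrial RP genes (9.98 to 33.3), 15.9% at the biogenesis factors (7.93 to 29.4) and 10.3% at the proteasome subunits (3.58 to 26.4). All these intervals overlapped that of the RP peaks.

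**Figure D4:**
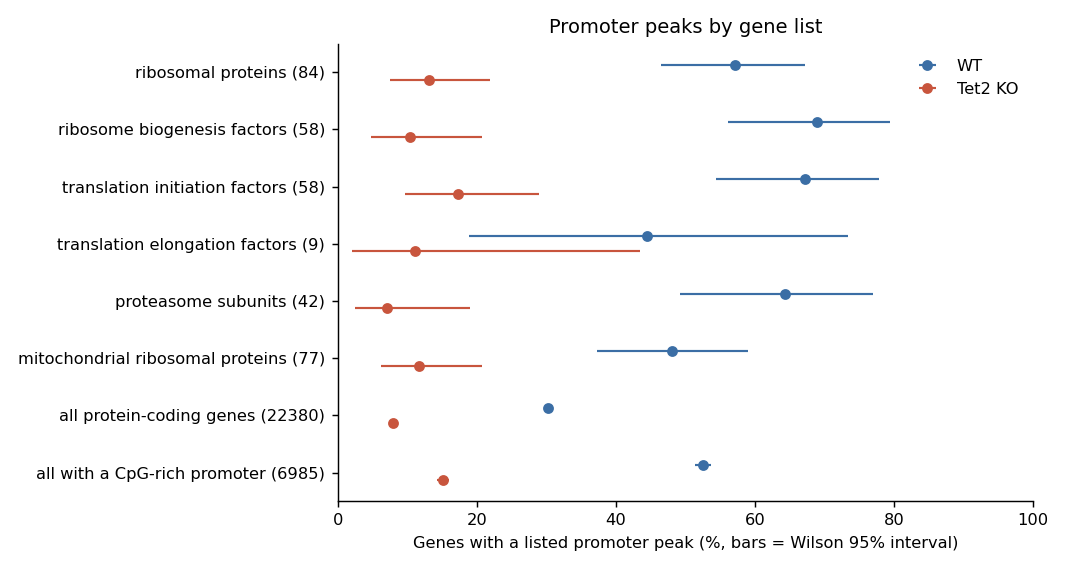
Share of genes with a listed promoter peak (%) in WT and Tet2 KO for the RP genes, 5 other lists, all protein-coding genes and those with a CpG-rich promoter, with the number of genes in brackets; bars are Wilson 95% intervals of counting error. The RP genes stand at 57.1% in WT and 13.1% in Tet2 KO, near the other translation lists. All protein-coding genes stand at 30.2% and 7.92%, and the RP interval in Tet2 KO includes the latter.

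The sequence of RP promoters was described in the 63 genes with a placed RefSeq promoter of 300 bases, 250 before and 50 after the start. Those not placed included Rpl3, Rpl7, Rpl8, Rpl17, Rpl21, Rpl23a, Rpl29, Rpl30, Rpl32, Rpl36, Rplp1, Rps4y2, Rps14, Rps20, Rps27a and Rps29. The observed to expected CpG ratio had a median of 0.868, against 0.576 over 17492 protein-coding promoters, while the GC content was alike, at 57.0% and 56.3%. Over 69 mitochondrial RP promoters the median ratio was 0.818. Among the RP promoters Rpl3l stood at the low end with a ratio of 0.0892. A run of at least 8 pyrimidines within 20 bases of the start was found in 30 RP promoters, 47.6% (35.8 to 59.7), against 15.5% of all. The start base was a cytosine in 31.7%, against 13.7%. At the mitochondrial RP promoters these shares were 17.4% and 15.9%.

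The pyrimidine tract at the start is shown for 5 members and, as a contrast, for Rpl22. Each line gives the 15 bases before and the 15 from the RefSeq start on, in mm9, with the longest run of pyrimidines in capitals.
Rpl15, chr14:19103486-19103515, minus strand: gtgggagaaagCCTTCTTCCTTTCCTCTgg
Rplp2, chr7:148633535-148633564, plus strand: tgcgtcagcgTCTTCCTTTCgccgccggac
Rps6, chr4:86503257-86503286, minus strand: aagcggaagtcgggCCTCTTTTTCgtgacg
Rps18, chr17:34092596-34092625, minus strand: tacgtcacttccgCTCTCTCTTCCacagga
Rpl28, chr7:4744552-4744581, plus strand: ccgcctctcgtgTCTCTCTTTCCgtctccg
Rpl22, chr4:151699820-151699849, plus strand: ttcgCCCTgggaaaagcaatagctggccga

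The run was 17 bases in Rpl15, 11 in Rps18 and Rpl28, 10 in Rplp2 and Rps6, and 4 in Rpl22, in which the start base was a G. The first 5 of these genes ranged from 5.39 to 12.4 in WT fold enrichment, and Rpl22, with the shortest run, had the highest value. RefSeq gives 2 starts for Rpl22, of which 1 was used, so its run and start base hold for that start only. A run of at least 8 was present in 19 of the 39 RP promoters whose gene had a WT peak (48.7%). It was present in 11 of the 24 whose gene had none (45.8%). The tract was thus about as frequent at genes with and without a listed peak.

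The ETS-type letters CCGGAAG were found in 24 of the 63 RP promoters, 38.1% (27.1 to 50.4), against 11.9% of all protein-coding promoters. Of 69 mitochondrial RP promoters 36.2% held them, a share close to that of the RP promoters. At RP genes with a WT peak the letters were in 18 of 39 (46.2%, 31.6 to 61.4). At those without one they were in 6 of 24 (25.0%, 12.0 to 44.9), and these intervals overlap. This split is by gene, and the WT peaks of Rpl18 and Rpl24 lay at other starts than the promoters described. The palindrome CTCGCGAG was in 7 RP promoters, 11.1% (5.49 to 21.2), against 1.30% of all. The GC box GGGCGG was in 60.3% against 46.3%, the YY1-type AAGATGG in 14.3% against 6.37%, the NRF1-type core GCATGCG in 7.94% against 4.49%, the NF-Y letters CCAAT in 31.7% against 39.0% and TATAAA in 9.52% against 13.3%. Of the 7 RP promoters whose gene had a Tet2 KO peak, 6 held the GC box and 3 the ETS-type letters. Among these, the Rpl18 peak lay at another start than the promoter described. At the mitochondrial RP promoters the palindrome was in 2.90%, the GC box in 49.3% and AAGATGG in 18.8%. There GCATGCG was in 11.6%, CCAAT in 39.1% and TATAAA in 5.80%. All motifs were searched on both strands, and matches to different motifs may overlap.

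**Figure D5:**
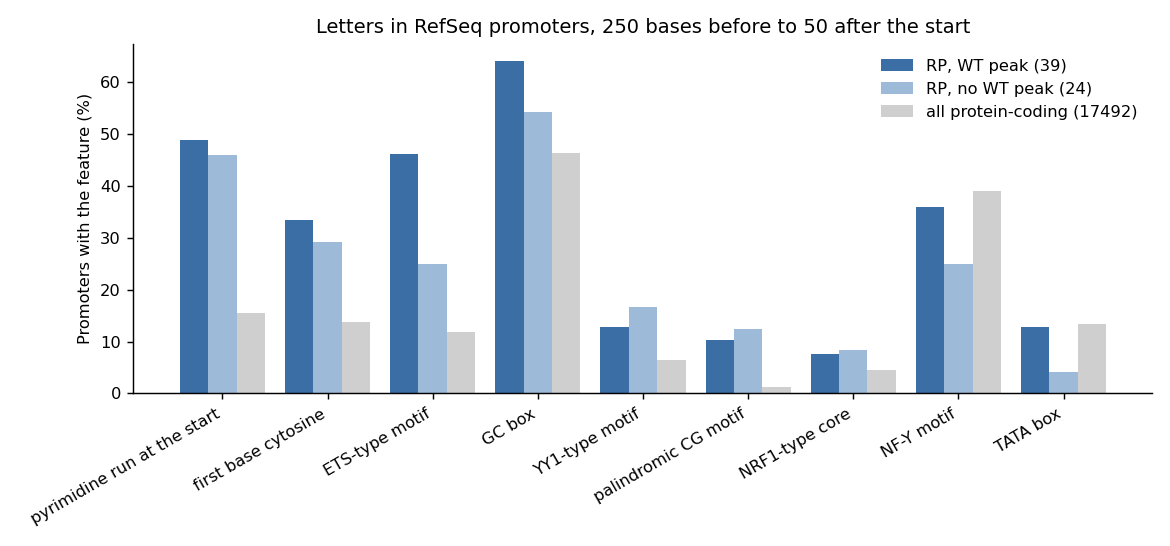
Share of RefSeq promoters (%) with each feature for the RP genes with a WT peak (39), the RP genes without a WT peak (24) and all protein-coding genes (17492). The ETS-type motif is in 46.2%, 25.0% and 11.9% of these sets, and the pyrimidine run at the start in 48.7%, 45.8% and 15.5%.

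A further feature of the RP genes is sequence that occurs more than once in the genome. In the 250 bases upstream of the RefSeq start 1.27% of the 32-base words of RP promoters occurred elsewhere in mm9, and 10.7% did in the first 100 bases of the gene, against 0.586% and 2.75% at mitochondrial RP genes. Upstream, the share was 0.293% for RP genes with a WT peak and 2.85% for those without, and in the WT RP peaks themselves it was 1.90%. Reads with a low mapping quality were removed by the authors, and the part of this in the missing peaks was not tested. RP genes with a snoRNA annotated inside the gene on the same strand had a WT peak in 19 of 30 cases (63.3%, 45.5 to 78.1). The others had one in 29 of 54 (53.7%, 40.6 to 66.3). In Tet2 KO these were 3 of 30 and 8 of 54.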

How the data were processed

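ATAC-seq reads were trimmed, aligned to mm9 with Bowtie2, filtered for mapping quality and duplicates, and peaks were called per sample with MACS2 by the authors. The score the authors deposited follows the -log10 q in WT and the -log10 p in Tet2 KO, multiplied by 10. The deposited fold enrichment is the ratio of the summit to the local background, with 1 added to both, and the authors' -log10 p-value and q-value are those of the summit. The number of fragments at a summit was solved under the Poisson model of MACS2 from the deposited fold and -log10 p. For 22 WT peaks and 1 Tet2 KO peak more than 1 number fitted, and the best fit with a background not under the genome-wide level was used. The recovery was tested on simulated data. Total reads are not known.

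Peaks were assigned to GENCODE M1 starts at their centre (1000 bp upstream to 100 bp downstream) and overlapped when they shared at least 1 bp. Shares have Wilson 95% intervals and fragments Poisson intervals. No test between genotypes was made, since each has 1 list. RefSeq promoters (GRCm38.p6) were placed in mm9 by exact match. Members and lists were chosen with earlier results of these data known, and any member could be named. Values are given in full for members with a Tet2 KO peak, the 10 highest and 5 lowest in WT, members without a peak, and paralogs, except for a few members that are not reported here. The classes of CpG-rich promoters and of RefSeq starts were added after the values were seen. Alternatives were stricter limits, other windows, starts and overlap rules. The tools were pysam 0.24.0, scipy 1.17.1, pandas 2.3.3 and numpy 2.4.6 under Python 3.11.15.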

Additional observations from a re-analysis of the deposited data

How the results depend on the processing

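Of 75 recomputed values, 64 stayed within 1.5 times the reported count or inside the 95% interval of the reported value. They came from other windows, starts, peak points, gene sets, merging, summit overlap and milder limits, and 2 of them, the Tet2 KO values with the reduced WT list, could not move. When only peaks reaching a -log10 q of 10 were kept, 30 RP genes had a WT peak and 1 a Tet2 KO peak, against 4233 and 278 of the 22380 protein-coding genes, so the Tet2 KO share of RP genes was 0.958 times that of all. The share of WT peaks with a counterpart was then 3.33%, against 6.07% at all protein-coding promoters, the ratio of WT to Tet2 KO peaks was 30, against 16.5, and the median fold enrichments were 9.72 and 7.59. With the WT list cut to as many peaks as the Tet2 KO list, 9 RP genes had a WT peak, the share was 77.8%, the ratio was 0.75 and the WT median was 12.1, against 1458 genes, 69.8%, 0.789 and 12.4 over all protein-coding promoters. When the overlap had to cover 50% of both peaks, the share was 11.3%, against 17.2% at all protein-coding promoters. Each of these settings removes peaks or pairs by its construction.

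No paired analysis was possible because there was a single list for WT and for Tet2 KO, neither tied to a numbered sample, and leaving out a replicate was equally impossible. Summits rest on 10 to 31 fragments in the WT RP peaks and at least 10 in the Tet2 KO RP peaks. The lists lack part of the called peaks, and absence from a list is not absence of accessibility.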
